A study of Homo sapiens with 30 samples.

Results

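The replication-dependent core histone genes encode the H2A, H2B, H3 and H4 proteins around which DNA is wound in the nucleosome. They were taken here as every row of the count tables named for a gene of the clusters HIST1 to HIST4 and for 1 of these 4 histone types, with the linker H1 genes left out. This gave 67 of the 27630 rows: 18 for H2A, 20 for H2B, 14 for H3 and 15 for H4. The rule also took in rows whose current symbols are those of pseudogenes: HIST2H2BA (H2BP1), HIST2H2BC (H2BC20P) and HIST1H2APS1 (H2AC2P). They are counted below under their histone type. The HIST1 cluster on chromosome 6 held 50 of them, HIST2 and HIST3 on chromosome 1 held 13 and 3, and HIST4 on chromosome 12 held 1. The RNA came from HEK293FT, a cell line of human embryonic kidney origin, as 8 libraries that form 4 groups of 2: a nuclear fraction, a cytosolic fraction, and a native and a paraformaldehyde (PFA) preparation from proximity labelling at the nuclear lamina with the peroxidase APEX2. The cells of all 4 groups were asynchronous and, per the labels, carried the same transfected fusion of APEX2 with lamin B1. No group is an untransfected or unlabelled control, and the labels do not say whether the 2 libraries of a group came from separate cultures, so the p-values below measure only the spread between these libraries. A value in bulk RNA also cannot separate the number of cells in S phase from the amount of histone mRNA per cell.

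As background, these genes are expressed mainly in S phase, when new DNA needs new histones. They have no introns as a rule, and their mRNAs end in a conserved stem-loop in place of a poly(A) tail. The stem-loop is bound by SLBP, which accompanies the mRNA through processing, export and translation, and the U7 small nuclear RNP directs the cleavage that makes the end. Transcription and processing take place in histone locus bodies, which NPAT organises at the clusters. Because the libraries were made by depleting ribosomal RNA and not by selecting poly(A), mRNAs without a tail could be counted. Replacement variants such as H3F3B are, by contrast, made through the cell cycle from polyadenylated mRNAs.

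The regions just before the genes were read first, since many of the genes lie back to back and share them. RefSeq promoters of the build GRCh38.p14, each the 250 bases before the start, were found for 59 of the 67 genes. The letters TATAAA, the TATA box, stood on either strand in 40 of the 59 (67.8%) and in 11.1% of all 27305 promoters in the RefSeq table. CCAAT, the box that NF-Y binds, stood in 49 (83.1%) against 33.0% of all promoters. It was found in 16 of 16 H2A, 18 of 18 H2B and 12 of 12 H3 promoters, but in 3 of 13 H4 promoters. ATTTGCAT, the octamer that OCT1 binds, stood in 11 of 16 H2A and 14 of 18 H2B promoters, in 1 of 12 H3 and in 0 of 13 H4 promoters, against 1.66% of all promoters. The H3 promoter with an octamer is that of HIST1H3D, whose annotated start and matches are those of the H2A gene HIST1H2AD, so the same region was counted under both types. The windows of back-to-back H2A and H2B genes also overlap, so the same letters could be counted under both types for all 3 motifs. The octamer of HIST2H2AC, for example, lies on the minus strand, 197 bases before the start, on the side of its neighbour HIST2H2BE. The H2A and H2B counts are therefore not separate. A match describes these letters in this window and not a bound site. The 4 promoters below show 1 example of each type and are those of genes on which the results turn. Capitals mark these motifs or their reverse complements (TTTATA for the TATA box, ATTGG for the CCAAT box and ATGCAAAT for the octamer), and each sequence runs 5′ to 3′ towards the start.
HIST2H2BE, chr1:149886683-149886932, minus strand: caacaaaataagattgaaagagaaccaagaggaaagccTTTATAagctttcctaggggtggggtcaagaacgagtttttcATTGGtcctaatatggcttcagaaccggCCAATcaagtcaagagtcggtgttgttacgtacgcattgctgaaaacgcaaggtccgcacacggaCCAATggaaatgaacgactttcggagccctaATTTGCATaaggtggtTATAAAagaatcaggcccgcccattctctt
HIST1H2AG, chr6:27132793-27133042, plus strand: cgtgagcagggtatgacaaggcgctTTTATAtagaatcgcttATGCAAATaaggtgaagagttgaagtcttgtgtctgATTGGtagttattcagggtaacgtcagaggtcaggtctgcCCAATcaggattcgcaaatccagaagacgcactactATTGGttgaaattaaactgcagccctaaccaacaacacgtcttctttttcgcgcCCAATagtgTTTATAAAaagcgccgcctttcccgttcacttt
HIST1H3B, chr6:26032100-26032349, minus strand: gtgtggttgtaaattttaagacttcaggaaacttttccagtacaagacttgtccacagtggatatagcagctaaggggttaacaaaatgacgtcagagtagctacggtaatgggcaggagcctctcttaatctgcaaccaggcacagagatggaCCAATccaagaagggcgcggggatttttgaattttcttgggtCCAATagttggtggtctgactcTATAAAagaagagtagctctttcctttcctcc
HIST1H4E, chr6:26204360-26204609, plus strand: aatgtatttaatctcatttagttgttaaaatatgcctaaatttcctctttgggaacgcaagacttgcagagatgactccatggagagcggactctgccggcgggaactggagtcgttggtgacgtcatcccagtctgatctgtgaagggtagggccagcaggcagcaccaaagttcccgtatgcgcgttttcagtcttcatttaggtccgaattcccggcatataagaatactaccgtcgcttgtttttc

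The TATAAA nearest the start began 30 bases before it in HIST2H2BE, 31 in HIST1H2AG and 32 in HIST1H3B, and the HIST1H4E promoter held none of the 3 motifs. In HIST1H2AG the last TATAAA overlaps a TATAAA of the other strand. Its octamer lies on the minus strand, 208 bases before the start, which is the side of its neighbour HIST1H2BJ. By the hg19 coordinates of the count tables, 13 pairs of core histone genes pointed away from each other with starts at most 1000 bases apart, and 12 of these paired an H2A with an H2B gene. The distance between their starts ran from 224 to 347 bases, with a median of 266.

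Total counts ran from 2321291 to 8557777 per library, and 3 counts, taken as the floor, equalled 0.351 to 1.29 CPM (counts scaled to library size). The 5 HEK293FT markers summed to 98.6 to 438.0 normalised CPM, mostly from LIN28B and NEFL, while PAX2 of that list had 0 to 38 counts. The 5 erythroid markers summed to at most 1.84, with HBG1, HBG2 and HBE1 at 0 in every library and GATA1 at 0 to 10 counts. The 5 colon markers summed to 23.0 to 51.8, where KRT20 had 2 counts or fewer but CDX2 had 60 to 313. LMNB1, the gene of the transfected fusion, took 0.304% to 0.520% of counts in the nuclear and cytosolic libraries and 2.96% to 9.49% in the lamina libraries, with native replicate 2 at 2.96% and native replicate 1 at 8.601%. The nuclear RNAs MALAT1, NEAT1 and KCNQ1OT1 summed to 13800 and 22800 normalised CPM in the nuclear, 970.0 and 1300.0 in the cytosolic, 6340 and 13600 in the native and 712.0 and 4110 in the PFA libraries. The native and PFA libraries therefore differed within and between groups in how much nuclear RNA they held. The cytosolic markers GAPDH, ACTB and EEF1A1 summed to 813.0 and 1340 in the nuclear, 4740 and 8060 in the cytosolic, 2050 and 2050 in the native and 2540 and 1550 in the PFA libraries.

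Of the 67 genes, 43 passed the filter on low counts and were tested: 13 for H2A, 13 for H2B, 9 for H3 and 8 for H4. In all 8 libraries 40 of the 43 were above the filter's cutoff of 1.6 CPM, so these did not pass through 1 group alone. The 3 that were not are HIST2H2BC, HIST1H4J and HIST1H3E. The other 24 genes had at most 28 counts over all libraries together, and 18 of the 67 never exceeded 3 counts in any library. HIST1H2APS1 and HIST1H4G had no count, and HIST3H3, a mainly testis-expressed H3 gene, had 22 counts in all. The rows of HIST2H2AA3 and HIST2H2AA4, of HIST2H3A and HIST2H3C, and of HIST2H4A and HIST2H4B share the same intervals pair by pair. Reads that match near-identical copies may be missing from these rows, because the headers show no counting of multiply mapped reads. HIST1H3D is uncertain as an H3 value, since 435 of its 921 annotated bases are shared with HIST1H2AD and a read over both was counted for each. Both rows had close counts in every library, 4219 against 4120 in all, so most reads of HIST1H3D may be those of HIST1H2AD. HIST1H3D is still counted below as an H3 row and as a long row. HIST2H2BF shares 102 bases with FCGR1A.

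Core histone RNA took a small share of every library and was lowest in the nuclear fraction. Its share of counts was 0.0573% and 0.0738% in the 2 nuclear libraries and 0.490% and 0.531% in the 2 cytosolic ones. The native lamina libraries held 0.487% and 0.311%, and the PFA lamina libraries 0.376% and 0.270%. The means ± SD (n = 2) were 0.0655% ± 0.0116, 0.511% ± 0.0286, 0.399% ± 0.124 and 0.323% ± 0.0751 in that order. Every cytosolic and lamina library was above both nuclear libraries, and the cytosolic libraries were above the lamina libraries, by little in the case of native replicate 1. The cytosolic mean was 7.79 times, the native mean 6.09 times and the PFA mean 4.92 times the nuclear mean. The exact two-sided permutation p of each of these 3 differences was 0.33, the smallest that 2 libraries against 2 can give. The widest 95% Wilson interval of a single library, which covers counting error only, was 0.263% to 0.276% in PFA replicate 2.

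**Figure D1:**
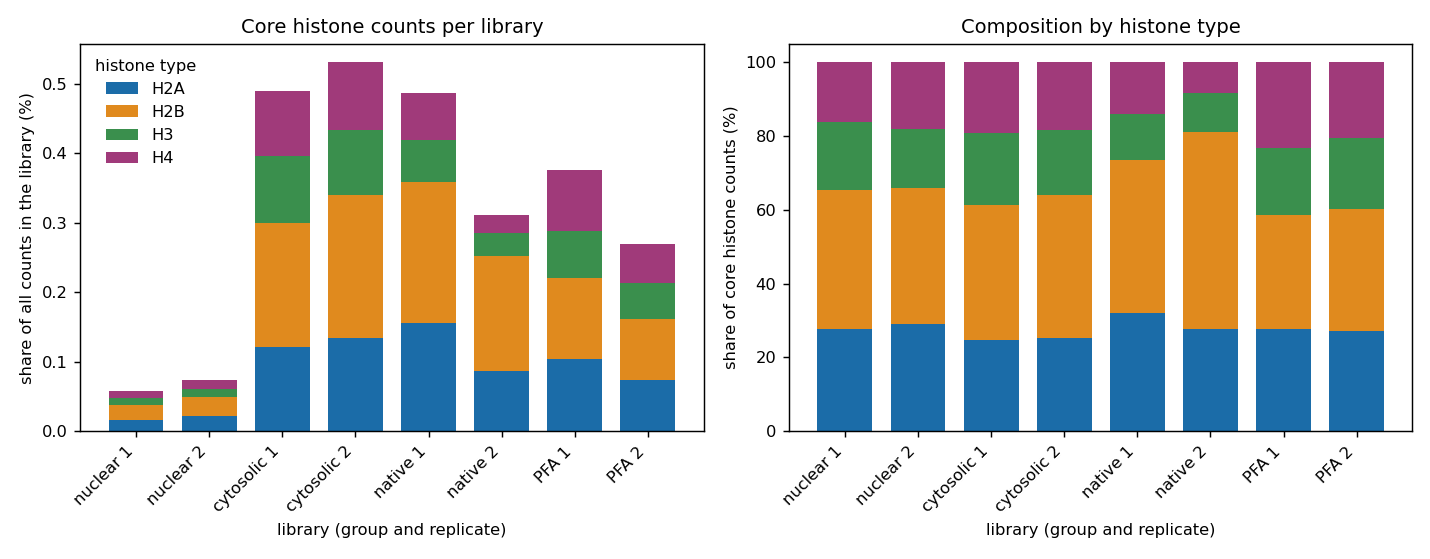
The left panel stacks the share of each library's counts (%) on H2A, H2B, H3 and H4 rows, and the right panel scales the same counts to 100% of core histone counts, for the 8 libraries by group and replicate. The 2 nuclear libraries stand lowest on the left at 0.0573% and 0.0738%, and the 2 native lamina libraries have the widest H2B bands on the right, at 41.6% and 53.4%.

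The make-up by type differed most in the native libraries. H2B took 41.6% and 53.4% of core histone counts in the native libraries and 31.0% to 38.6% in the other 6. H4 took 14.1% and 8.34% in the native libraries and 16.2% to 23.1% elsewhere, and H3 took 12.4% and 10.6% against 16.0% to 19.5%. The native libraries lay outside the range of the other 6 for these 3 types, and for H2A native replicate 1 alone did, at 31.98% against 24.8% to 29.0%. The 9 rows with an exonic length over 800 bases took 30.8% and 41.9% of core histone counts in the native libraries and 19.8% to 24.2% in the others. HIST2H2BE alone took 13.9% in native replicate 2, 8.62% in native replicate 1 and 3.34% to 6.19% elsewhere. By cluster, HIST1 held 72.8% to 84.4% of core histone counts, and HIST2 held 17.8% and 22.4% in the native libraries and 11.1% to 14.8% in the other 6.

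Levels between genes were compared as normalised CPM per kb of exonic length. HIST1H3B, an H3.1 gene at chr6:26031817-26032288, had the highest mean over the 8 libraries, at 410.3. It was also highest in the nuclear (93.7), cytosolic (840.0) and PFA (469.0) groups, while in the native group HIST1H2AH came first at 435.0. The next H3 genes were HIST1H3H and HIST1H3F. HIST1H2AH, HIST1H2AG and HIST1H2AM led the H2A genes, HIST1H2BD, HIST1H2BJ and HIST1H2BC the H2B genes, and HIST1H4E, HIST1H4C and HIST1H4D the H4 genes. All of the leading genes lie in HIST1. The lowest of the 43 was HIST2H2BC, at 0.908 in the cytosolic and 2.62 in the nuclear group.

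**Figure D2:**
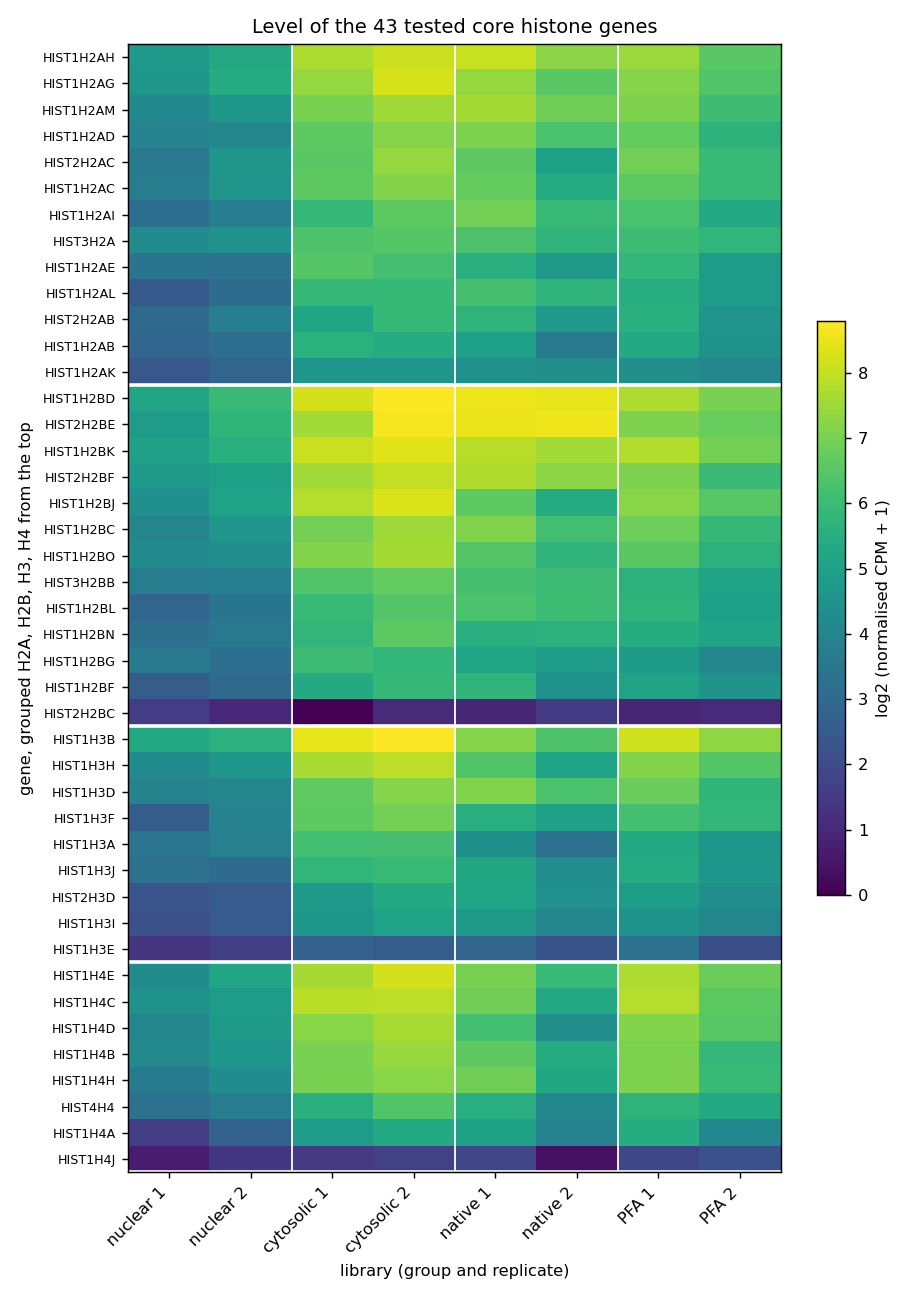
Each row is 1 of the 43 tested genes, grouped as H2A, H2B, H3 and H4 from the top and ordered by level within a type, each column is 1 library, and colour gives log2 of the normalised CPM plus 1. The 2 nuclear columns are dark for nearly all genes, and HIST2H2BC, HIST1H4J and HIST1H3E are dark throughout.

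The first comparison set the nuclear fraction against the cytosolic one. Levels are relative to the counts of each library, so they do not give how the mRNA molecules divide between nucleus and cytosol. Of the 43 genes, 41 were lower in the nuclear fraction and 0 higher (edgeR quasi-likelihood test, adjusted p under 0.05), where 21.2% of all 16504 genes tested were called lower and 26.1% higher. Their median log2 fold change was -2.94, against 0.13 over all genes tested. By type the medians were -2.87 for H2A, -2.95 for H2B, -2.88 for H3 and -3.08 for H4, and the difference between types was not tested. HIST2H2BC, a pseudogene row, and HIST1H4J, both near the floor, did not pass. Leaving out any 1 of the 4 libraries compared gave median log2 fold changes from -3.23 to -2.73.

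HIST1H3F had 4.98 and 13.9 normalised CPM in the nuclear libraries and 96.9 and 122 in the cytosolic ones. Both cytosolic values were above both nuclear values, as in 42 of the 43 genes and 35.4% of all genes tested. HIST1H3F fell by 3.54 on the log2 scale (SE 0.42, adjusted p 0.000504), the largest fall of the 43. HIST1H3H followed at a log2 fold change of -3.41 (SE 0.43, adjusted p 0.000551). HIST1H3B had 39.8 and 48.6 CPM in the nucleus against 354.3 and 438.3 in the cytosol. HIST1H4E, an H4 gene at chr6:26204873-26205249, had 17.9 and 36.2 CPM against 194.7 and 295.4, and HIST1H4C had 21.2 and 28.0 against 237.5 and 241.3. Their log2 fold changes were -3.18 and -3.28. Outside HIST1, the fall of HIST3H2A was below the median of the 43: it had 18.1 and 21.8 CPM in the nucleus and 80.3 and 88.8 in the cytosol, a log2 fold change of -2.08 (SE 0.30). HIST4H4, the single gene of its cluster at chr12:14923654-14924065, had 8.71 and 12.0 CPM against 47.2 and 84.4, a log2 fold change of -2.66 (SE 0.46), and HIST3H2BB stood at -2.89. Whether these genes differed from those of HIST1 was not tested.

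The second comparison set the native lamina preparation against the nuclear fraction. Of the 43 genes, 33 rose and 0 fell, where 3.87% of all genes tested were called higher and 3.44% lower. The median log2 fold change was 1.98, against -0.07 over all genes. H2A and H2B genes were called in 11 of 13 cases each, with medians of 1.98 and 2.45, H3 genes in 7 of 9 (1.76) and H4 genes in 4 of 8 (1.73). The count depends on single libraries: 1 gene was called without nuclear replicate 1, 8 without nuclear replicate 2 and 14 without native replicate 1, while the medians were then 1.92, 2.50 and 1.51. The nuclear RNAs, given above, differed between the nuclear libraries and between the native ones. LMNB1 differed between the native libraries but was similar in the nuclear ones. Their part in the result was not tested.

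HIST1H2AL, an H2A gene, rose most. Its CPM was 4.67 and 7.56 in the nuclear libraries and 71.8 and 51.3 in the native ones, a log2 fold change of 3.33 (SE 0.36, adjusted p 0.000917). HIST2H2BE, an H2B gene at chr1:149856010-149858232 whose annotated exon of 2223 bases is longer than a usual stem-loop-ended transcript, had 27.2 and 52.4 CPM against 373.6 and 382.4. It rose by 3.25 (SE 0.42, adjusted p 0.00306). HIST1H2BD, another H2B gene with a long annotation, had 35.6 and 59.8 against 378.4 and 351.1, a log2 fold change of 2.94 (SE 0.37). In these 3 genes both native values lay above both nuclear ones, as in 39 of the 43 genes and 28.2% of all genes tested.

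Other genes rose less or did not pass, and in HIST1H4C, HIST1H4D and HIST1H3A native replicate 2 was the lower of the pair. HIST1H4C had 118.7 and 38.9 CPM in the native libraries against 21.2 and 28.0 in the nuclear ones, a log2 fold change of 1.68 with an adjusted p of 0.0519. HIST1H4D had 71.2 and 19.4 against 15.6 and 26.5, so that its groups overlapped, and its log2 fold change was 1.12 (adjusted p 0.151). HIST1H3A had 19.9 and 8.69 against 9.96 and 13.1, and its log2 fold change was 0.33 (adjusted p 0.618). Without native replicate 1 the values of HIST1H4D and HIST1H3A turned to -0.094 and -0.39, and without native replicate 2 they were 1.78 and 0.80. HIST1H2BJ and HIST4H4 missed the threshold at adjusted p of 0.0561 and 0.0528, with log2 fold changes of 1.41 and 1.55. The other uncalled genes were HIST1H2AB, HIST1H3E, HIST1H4J, HIST2H2AC and HIST2H2BC.

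In the PFA lamina preparation 40 of the 43 genes rose against the nuclear fraction and 0 fell, where 9.63% of all genes tested were called higher and 7.81% lower. The median log2 fold change was 2.16, against -0.04 over all genes. It was highest for H4 at 2.52, with 7 of 8 genes called, followed by H3 at 2.33 (8 of 9), H2A at 2.14 (13 of 13) and H2B at 1.94 (12 of 13). The 3 genes that did not pass were HIST1H3E, HIST1H4J and HIST2H2BC. No gene passed without nuclear replicate 1, when the median was 1.93. This comparison shares the nuclear libraries with the previous one, so the 2 counts are not independent of each other.

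HIST1H4A, an H4 gene, rose most in this comparison. It had 2.02 and 5.84 CPM in the nuclear and 43.05 and 16.2 in the PFA libraries, a log2 fold change of 2.95 (SE 0.58, adjusted p 0.00914). HIST1H3F followed at 2.75 (SE 0.42), with 70.2 and 55.5 CPM against 4.98 and 13.9. HIST1H4C had 224.9 and 94.5 CPM and HIST1H4E 207.3 and 112.9 in the PFA libraries, and their log2 fold changes were 2.71 and 2.57. The long rows rose less than these: HIST2H2BE had 135.8 and 107.4 CPM (log2 fold change 1.61, adjusted p 0.0202) and HIST2H2BF had 134.0 and 63.3 (1.80). PFA replicate 1 was above replicate 2 for each of these genes, and all of their PFA values were above the nuclear ones. The latter held for 42 of the 43 genes and for 30% of all genes tested.

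**Figure D3:**
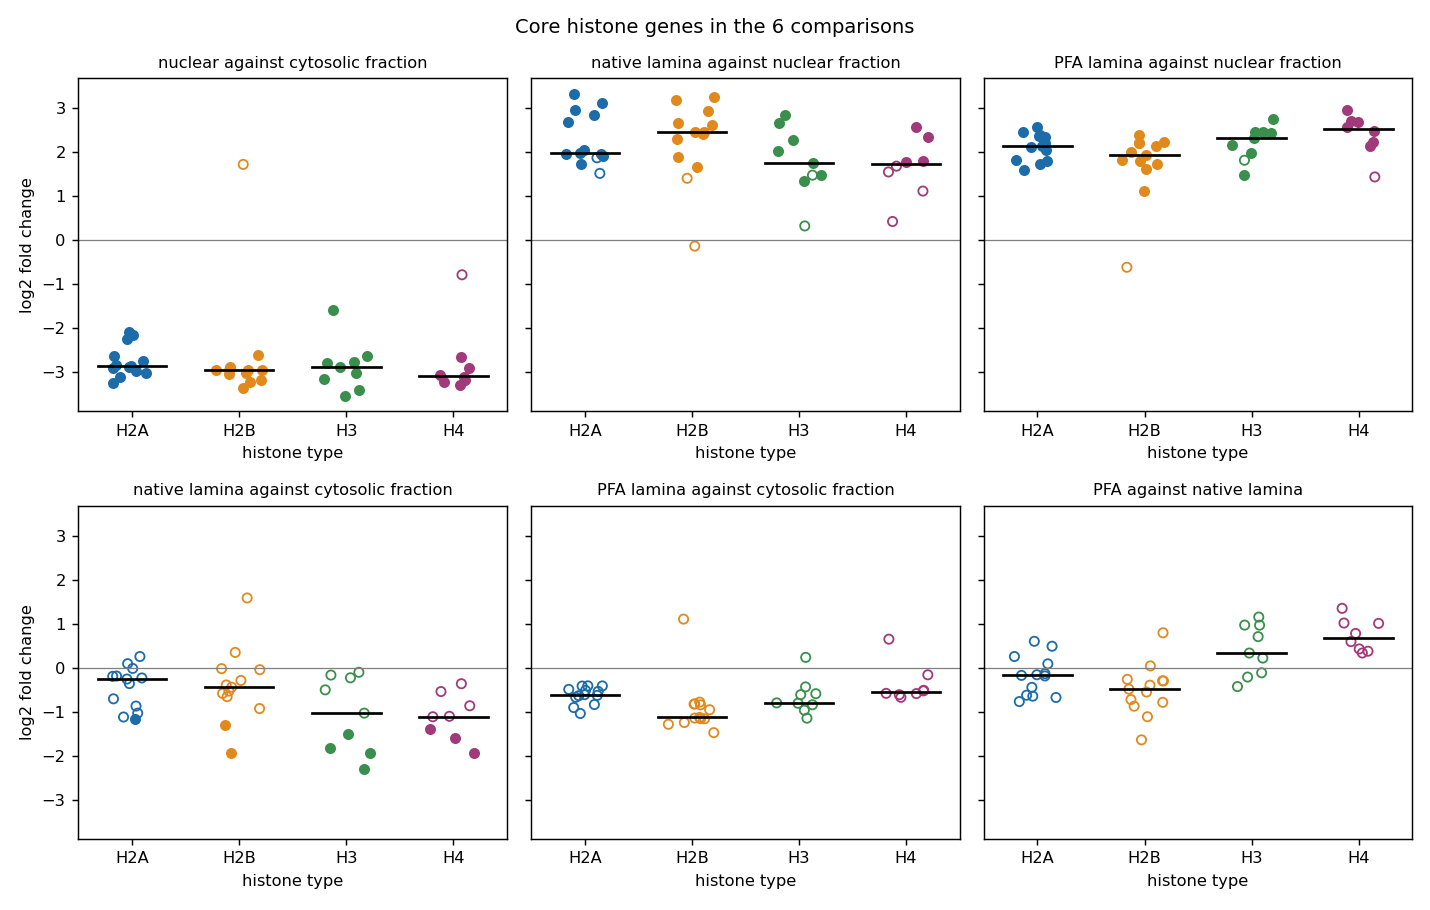
Each point is 1 of the 43 tested genes in 1 of the 6 comparisons, placed by histone type with its log2 fold change on the vertical axis; filled points passed an adjusted p of 0.05, open points did not, and black bars are medians by type. Nearly all points lie below 0 for nuclear against cytosolic and above 0 for both lamina preparations against nuclear, while the filled points against the cytosolic fraction are the 10 genes lower in the native preparation.

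Against the cytosolic fraction the native preparation was lower for a smaller set of genes, 7 of them for H3 or H4. Of the 43 genes, 10 were lower and 0 higher, where 6.77% of all genes tested were called lower and 6.99% higher. The median log2 fold change was -0.54 against 0.10 over all genes. The 10 were 4 H3 genes of 9 (HIST1H3A, HIST1H3H, HIST1H3B, HIST1H3F), 3 H4 genes of 8 (HIST1H4D, HIST1H4C, HIST1H4E), 2 H2B genes of 13 (HIST1H2BJ, HIST1H2BO) and 1 H2A gene of 13 (HIST1H2AE). The medians were -1.03 for H3, -1.10 for H4, -0.44 for H2B and -0.25 for H2A, and the difference between types was not tested. The number called depended on single libraries. The median log2 fold change of the 43 was -0.80 without cytosolic replicate 1 and -0.29 without cytosolic replicate 2. It was -1.17 without native replicate 1 and -0.20 without native replicate 2. With total counts in place of TMM factors 6 passed, and with no filter on low counts 16 did. The shares over all genes in these refits are not given here.

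HIST1H3A was lowest relative to the cytosol, with 19.9 and 8.69 CPM in the native and 68.7 and 73.2 in the cytosolic libraries, a log2 fold change of -2.30 (SE 0.39, adjusted p 0.00625). HIST1H2BJ had 96.8 and 41.9 CPM against 221.5 and 311.3, a log2 fold change of -1.94 (SE 0.41, adjusted p 0.0123). HIST1H3B had 145.3 and 80.3 against 354.3 and 438.3, a log2 fold change of -1.81 (SE 0.36, adjusted p 0.00997). For each of these genes both native values lay below both cytosolic ones, as in 22 of the 43 genes and 28.4% of all genes tested. None of the 5 tested genes with long annotations was called. HIST2H2BE had a log2 fold change of 0.35 (SE 0.38, adjusted p 0.551), which was -0.097 without cytosolic replicate 1 and 0.99 without cytosolic replicate 2. HIST1H2BK was the lowest of the 5 at -0.53 (adjusted p 0.291).

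The PFA preparation against the cytosolic fraction gave 0 called genes of 43 by edgeR, where 0.527% of all genes were called higher and 0.145% lower. At an unadjusted edgeR p under 0.05 there were 17 of the 43, beside 3556 of all 16504 genes tested. The DESeq2 Wald test called 7 lower, for which the share over all genes is not given here. The median log2 fold change was -0.67 against 0.08 over all genes. H2B lay lowest at -1.12, then H3 at -0.79, H2A at -0.61 and H4 at -0.55. HIST3H2BB had 49.7 and 32.7 CPM in the PFA and 83.4 and 101.9 in the cytosolic libraries, and its log2 fold change of -1.16 had an adjusted p of 0.0701. The median was -1.29 without PFA replicate 1 and -0.39 without PFA replicate 2. With no filter on low counts 10 genes passed, for which the share over all genes is not given here.

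The direct comparison of the 2 lamina preparations also called 0 of the 43 genes by edgeR, where 0% of all genes were called in either direction. At an unadjusted edgeR p under 0.05 there were 11 of the 43, beside 1821 of all 16504 genes tested. The DESeq2 Wald test called 2 lower, again without a share over all genes given here. All 8 H4 genes had higher fitted values in PFA, with a median log2 difference of 0.69, and 6 of 9 H3 genes did, with a median of 0.34. Of all 16504 genes tested, 8897 had higher fitted values in PFA. The H2A and H2B medians were -0.17 and -0.48. HIST1H4D had 142.7 and 89.8 CPM in the PFA libraries and 71.2 and 19.4 in the native ones, a log2 difference of 1.36 (SE 0.48, adjusted p 0.348). HIST2H2BE had 135.8 and 107.4 against 373.6 and 382.4, a log2 difference of -1.63 (SE 0.39, adjusted p 0.285). These 2 genes did not overlap between the preparations, and neither passed the test over all genes. Both PFA values lay above both native ones in 19.9% of all genes tested and below them in 18.7%. The same held for 6 and 8 of the 43 genes. The median log2 difference of the 43 genes was 0.18 without PFA replicate 2 and -0.48 without PFA replicate 1.

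**Figure D4:**
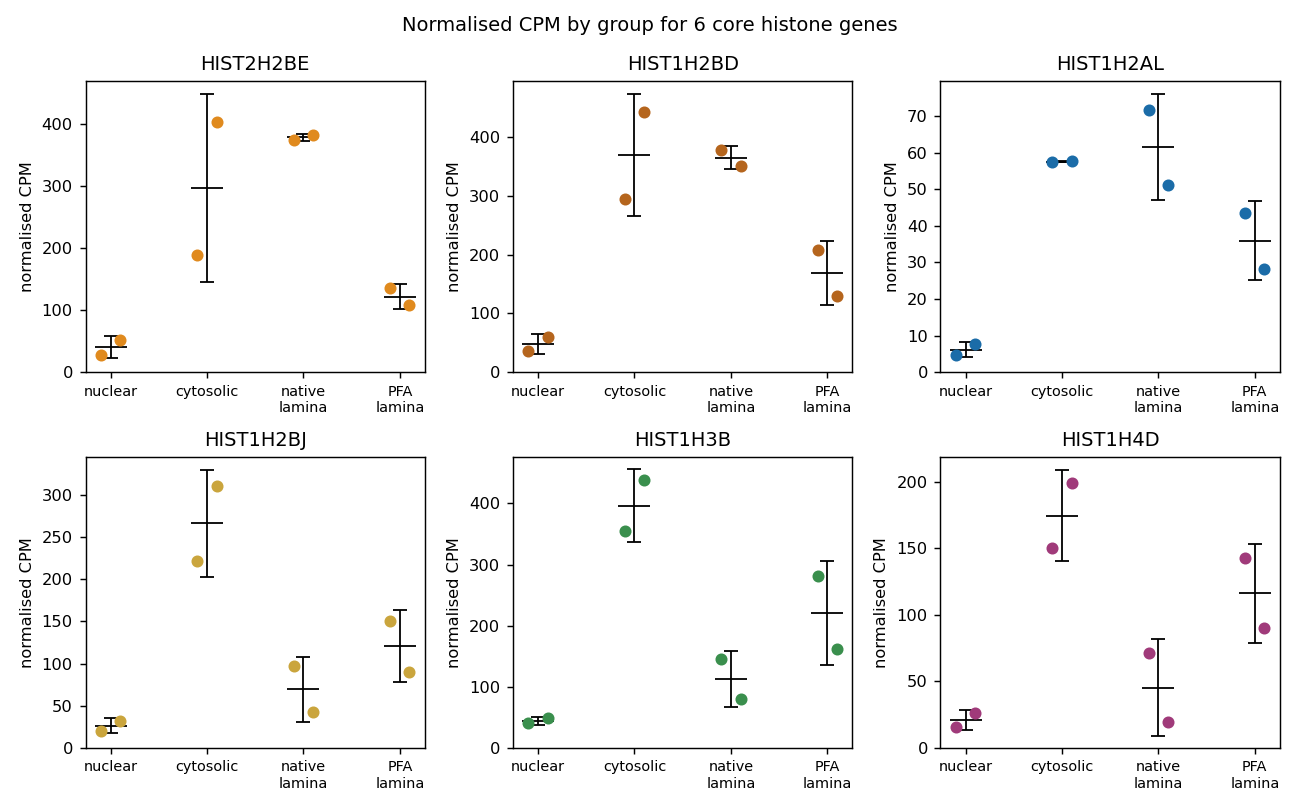
Normalised CPM (linear axis from 0) of 6 genes in the 4 groups; points are single libraries, horizontal bars are group means and whiskers 1 SD (n = 2). HIST2H2BE, HIST1H2BD and HIST1H2AL have native values near or above the cytosolic ones, while HIST1H2BJ, HIST1H3B and HIST1H4D have native values below both cytosolic ones.

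Exonic length moved most with the difference between PFA and native. The tested H4 rows were 356 to 412 bases long (median 373.0), H3 rows had a median of 472.0, H2A of 481.0 and H2B of 467.0. The 5 tested rows over 800 bases were HIST2H2BE (2223), HIST2H2BF (1067), HIST1H3D (921), HIST1H2BK (887) and HIST1H2BD (861), of which the first 2, HIST1H2BK and HIST1H2BD are H2B genes. All 5 rose in the native preparation against nuclear, with a median log2 fold change of 2.86 against 1.94 for the 38 shorter rows, of which 28 rose. That 2.86 was the value of HIST1H3D, whose counts were close to those of the 510-base row HIST1H2AD. The 4 long H2B rows alone had a median of 2.80, against 2.29 for the 9 shorter H2B rows. Between PFA and native the median log2 difference of the 5 long rows was -0.87, against 0.07 for the 38 shorter rows. Within H2B it was -0.99 for the 4 long rows and -0.39 for the 9 shorter ones. Over all 16504 genes Spearman's rho between length and the log2 difference of PFA and native was -0.335, and over the 43 histone rows it was -0.46. These values are descriptions over genes that share the same libraries, and the part of length in the contrasts between types was not tested. Among the 38 rows up to 800 bases rho for PFA against native was -0.292. For native against nuclear rho was 0.275 over the 43 rows and 0.0534 among the 38. In the other comparisons rho over the 43 rows ran from -0.316 for PFA against cytosolic to 0.341 for native against cytosolic, with 0.084 for nuclear against cytosolic.

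Genes that share a promoter region were compared within the 10 H2A and H2B pairs of which both were tested. Nuclear against cytosolic log2 fold changes of partners differed by at most 0.802, in HIST3H2A and HIST3H2BB. Native against cytosolic, the pair HIST2H2BE and HIST2H2AC differed most, by 1.38, and between PFA and native by 2.13. HIST2H2AC, whose start lies 293 bases from that of HIST2H2BE, had 96.2 and 31.97 CPM in the native libraries, where HIST2H2BE had 373.6 and 382.4. HIST1H2BJ and HIST1H2AG, 242 bases apart and joined by the HIST1H2AG promoter printed above, had native against cytosolic log2 fold changes of -1.94 and -0.87, of which the second did not pass (adjusted p 0.164). The H2A partner had the higher log2 fold change in 9 of 10 pairs for PFA against cytosolic, in 7 for nuclear and for native against cytosolic, in 5 for either lamina preparation against nuclear and in 6 for PFA against native. The differences between partners were not tested.

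HIST3H2A and HIST3H2BB, the tested pair of the HIST3 cluster, were higher in all 4 lamina libraries than in both nuclear ones. HIST3H2A had 79.5 and 52.5 CPM in the native and 65.6 and 54.8 in the PFA libraries, against 18.1 and 21.8 in the nuclear ones. It rose by 1.73 in native (adjusted p 0.0115) and by 1.60 in PFA (adjusted p 0.00835) on the log2 scale. HIST3H2BB had 72.3 and 64.4 in the native and 49.7 and 32.7 in the PFA libraries, against 12.1 and 12.9, and rose by 2.45 and 1.73. HIST4H4 had 44.4 and 16.1 in the native and 52.3 and 39.4 in the PFA libraries and rose in the PFA ones (log2 fold change 2.15, adjusted p 0.0117).

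Other histone genes and the factors that make and carry histone mRNA were read from lists. Their counts stand against 21.2% of all genes called lower and 26.1% higher in nuclear against cytosolic, 3.87% higher in native against nuclear and 9.63% higher in PFA against nuclear. Of 6 linker H1 genes 3 were tested, and HIST1H1C, HIST1H1D and HIST1H1E fell in the nuclear against the cytosolic fraction (median -2.85) and rose in native against nuclear (median 3.43). Linker H1 rows took 0.313% of counts on average in the native libraries against 0.157% in the cytosolic ones, and none of the 3 was called between these groups. Of 11 tested replacement variants, 9 were lower in nuclear than in cytosolic (median -1.75), and 6 rose in native (1.01) and 8 in PFA (1.14) against nuclear. H2AFZ, which encodes H2A.Z, fell in native against cytosolic by 2.20 on the log2 scale (adjusted p 0.00427).

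Of 15 tested genes for 3′ end processing and decay of histone mRNA, 11 were lower in nuclear than in cytosolic and 0 higher, and 1 rose in native against nuclear: LSM11, a subunit of the U7 snRNP (1.15, adjusted p 0.0354). In PFA against nuclear 4 rose and 0 fell: CSTF2, LSM1, SNRPB and ZNF473. The single gene in native is close to the share of all genes. SLBP had 39.1 and 69.9 CPM in the nuclear and 101.5 and 149.9 in the cytosolic libraries (log2 fold change -1.21, adjusted p 0.00949). Among 11 genes of histone transcription, NPAT, CASP8AP2 and ATM were higher in the nuclear fraction and CDK2 was lower, so that the share called higher was near that of all genes (26.1%) and the share called lower was under it (21.2%). In PFA against nuclear E2F2 rose, and ATM and NPAT fell. NPAT had 90.6 and 129.5 CPM in the nuclear, 24.9 and 35.3 in the cytosolic, 44.9 and 48.8 in the native and 39.0 and 37.5 in the PFA libraries. It fell against nuclear by 1.23 in native (adjusted p 0.0295) and by 1.52 in PFA (adjusted p 0.00913), opposite in sign to the core histone genes. Of 14 histone chaperone genes 8 were lower in nuclear than in cytosolic, and 4 rose in native against nuclear: SSRP1 and SUPT16H, the subunits of FACT, SET and RBBP7. In PFA against nuclear 5 rose (ASF1B, HAT1, RBBP7, SET and SSRP1) and NASP fell by 1.17 on the log2 scale.

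The genes themselves lay outside the mapped lamina-associated domains. The deposited consensus domains come from HCT116, a colorectal carcinoma line, in G1, S and G2, so they are not of the cells in which RNA was counted. Of the 67 genes 0 overlapped a domain in any stage, where 7.94%, 6.81% and 9.51% of 27264 genes did in G1, S and G2. The nearest gene was 385.2 kb from a domain in G1 and 1526.3 kb in S and in G2. Most of the genes sit in 1 cluster on chromosome 6 and are therefore not independent positions.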

How the data were processed

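RNA of 8 HEK293FT libraries had been isolated with Trizol and sequenced after ribosomal depletion, per the labels' protocols. The deposited values are raw read counts per gene, not normalised; the authors counted reads over hg19 RefFlat genes using featureCounts 1.5.2, per the file headers. Strand was ignored and a read over several genes was counted for each, per the file headers; TopHat2 2.1.1 and Bowtie2 2.3.2 are named in the submitters' processing notes. The header of cytosolic replicate 1 carries the output name of nuclear replicate 1, and it was kept as labelled. The domain lists of the authors hold intervals only, as positions with no other value.

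Genes were filtered with filterByExpr by group (minimum count 10, minimum total 15), which kept 16504 of 27630. They were scaled with TMM and tested in 1 fit of all 8 libraries, without a block, with edgeR 4.0.16 (quasi-likelihood) under R 4.3.3, with Benjamini-Hochberg adjustment over all genes of each of 6 contrasts. A gene was called at an adjusted p under 0.05. Standard errors were derived from the log2 fold change and its F statistic. Normalised CPM uses the TMM factors. The code was tested on simulated data.

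The members and all lists were chosen with earlier results of these data known. Named genes are the 3 highest of each type per kb, the 2 called genes with the largest change in each direction of each contrast, every gene of HIST3 and HIST4, and tested genes over 800 bases. Others were named after their values were seen. Alternatives were other scaling factors, no filter, only the 4 libraries compared, DESeq2 1.42.0, a replicate block and each library left out; counts without HIST1H3D were added after seeing the data and differed by at most 1 gene. The labels do not state that replicate numbers pair libraries. Samples of the K562 line, whose title and material labels conflict, and the chromatin immunoprecipitation samples were not used here.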

Additional observations from a re-analysis of the deposited data

How the results depend on the processing

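Nuclear against cytosolic gave median log2 fold changes from -3.23 to -2.73 over the 4 fits that each left out 1 library. The other contrasts depended on single libraries, with ranges of 1 to 37 called for native against nuclear, 0 to 41 for PFA against nuclear, 1 to 16 for native against cytosolic, 0 to 22 for PFA against cytosolic and 0 to 2 for PFA against native. A group left with 1 library is assumed there to vary like the others. Total counts in place of TMM gave 6 called for native against cytosolic. No filter gave 16 there, 10 for PFA against cytosolic and 2 for PFA against native, and the DESeq2 Wald test gave 7 and 2 for the last pair of contrasts. The cause of these shifts was not tested, and the shares over all genes under these alternatives are not given here. With the replicate number as a block, 2 genes were called for PFA against cytosolic, 35 for native against nuclear and 13 for native against cytosolic, and the block changed no other count of calls by over 1.5 times. Replicates of the same number correlated in their deviations at -0.0674 to 0.321 over the 6 contrasts, and no pairing was assumed. Total counts moved the median of all genes by 0.285 in native against nuclear and by 0.29 in native against cytosolic, and upper-quartile factors by 0.268 in nuclear against cytosolic, and no core histone gene was called in the opposite direction there. With LMNB1 and ribosomal RNA rows out of the total, core histone shares were 0.103% nuclear, 0.702% cytosolic, 0.472% native and 0.469% PFA. With every row in the total, single libraries ranged over 0.0573% to 0.0738%, 0.490% to 0.531%, 0.311% to 0.487% and 0.270% to 0.376%. In native against nuclear, the log2 fold changes of HIST1H3A and HIST1H4D ran from -0.387 and -0.0941 without native replicate 1 to 0.803 and 1.78 without native replicate 2. That of HIST2H2BE in native against cytosolic ran from -0.0973 without cytosolic replicate 1 to 0.993 without cytosolic replicate 2. Of the other values of named genes under an alternative, 724 kept direction and side of the threshold, 76 lost the call and 44 gained it. Depth limits the 24 untested genes, with at most 28 counts each.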
